A study of Mus musculus with 4 samples.

Results

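The miR-15/16 family with miR-322 and miR-503 was read on miRNA arrays of wild type (wt) and Junb-/- mouse embryonic fibroblasts (MEFs). Members were taken by name, as mmu-miR-15a, mmu-miR-15b, mmu-miR-16, mmu-miR-195, mmu-miR-497, mmu-miR-322 and mmu-miR-503 (mmu stands for mouse and is left out below), with or without an arm and without star strands. All 7 were on the array, with 56 of its 5680 spots, among 710 miRNAs in all. Total RNA of 2 wild type and 2 Junb-/- clones was measured on 1 array per clone. The fibroblasts, connective tissue cells, came from E9.5 embryos on a mixed C57BL/6 × 129/Sv background, Junb-deficient or wildtype, and had been immortalized by the 3T3 protocol, so they are not primary cells. They were grown without further treatment at 37 °C and 8% CO2 in DMEM with 10% fetal calf serum, glutamine, penicillin and streptomycin. The study calls the clone pairs independent, but no source used here says whether the clones of a genotype came from separate embryos, and p-values then measure only the spread between these clones. Junb mRNA is not measured on a miRNA array.

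A miRNA is cut from a hairpin and guides silencing proteins to mRNAs through its seed, bases 2 to 8. The miR-15/16 family restrains the cell cycle: its known targets include mRNAs of D- and E-type cyclins, the kinases Cdk6 and Chek1 and the survival factor Bcl2, and the human genes of miR-15a and miR-16 are often lost in chronic lymphocytic leukaemia. JUNB, which pairs with other proteins to form the transcription factor AP-1, is known to hold back fibroblast proliferation as well, in part by repressing cyclin D1.

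The members come from 4 loci. In the RefSeq annotation of GRCm38, Mir15a and Mir16-1 lie on chromosome 14 within the long non-coding RNA gene Dleu2, and Mir15b and Mir16-2 lie on chromosome 3 within Smc4, which encodes a condensin subunit. Mir497 and Mir195a are neighbours on chromosome 11. Mir322 and Mir503 lie on the X chromosome within the non-coding gene C430049B03Rik, followed on the same strand by Mir351, Mir542, Mir450-2, Mir450-1 and Mir450b. The array files name no genome build, so no coordinates are given. Mature miR-16 is made from both of its loci with the same sequence, and an array signal for miR-16 cannot be divided between chromosomes 14 and 3.
The mature sequences of all 7 members were found in RefSeq (GRCm38.p6). They are shown because they define the family and because their likeness bears on what a probe can tell apart. Capitals mark the seed.
miR-15a: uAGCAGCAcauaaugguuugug
miR-15b: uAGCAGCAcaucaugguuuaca
miR-16: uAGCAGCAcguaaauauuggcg
miR-195: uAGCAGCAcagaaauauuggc
miR-497: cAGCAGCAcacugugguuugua
miR-322: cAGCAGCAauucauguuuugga
miR-503: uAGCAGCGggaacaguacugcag
The seed was identical in 6 members, and miR-503 stood alone with another seed. Laid side by side from the 5′ end without gaps, miR-16 and miR-195 had the same base at 19 of 21 positions, although they come from different loci. miR-15a and miR-15b shared 18 of 22. Partners of 1 locus were less alike, with 12 of 21 positions for miR-195 and miR-497 and 11 of 22 for miR-322 and miR-503. How far a probe of one member also binds another was not tested.

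Each miRNA had 8 spots, and the deposited intensity of a spot carries no background or flag value. Over all spots, wt clones 1 and 2 had median intensities of 33.6 and 105.6, compared with 84.0 and 110.1 for Junb-/- clones 1 and 2. The dimmest array was thus that of wt clone 1. After an offset of 50, log2 values were brought to a common distribution by quantile normalization and the mean over the spots of a miRNA was taken. This normalized level is used below unless an intensity is named. Of the miRNAs fixed as fibroblast markers, all 9 gave median spot intensities from 570.4 to 7839, and 11 markers of muscle, liver, neurons, blood and epithelium gave between 3.5 and 312. Because probes differ in how well they bind, the members were not ranked against each other by level. The marker ranges, and the group of miRNAs with the highest mean level named below, do set different probes side by side and are coarse.

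No member of the family passed the test between genotypes. The test was limma's, with an adjusted p under 0.05 over all 710 miRNAs, and 10 miRNAs (1.41%) passed it, 4 higher and 6 lower in Junb-/- MEFs. At an unadjusted p under 0.05 there were 0 of 7 members and 74 miRNAs (10.4%) in all. The log2 fold changes of the members, Junb-/- minus wt, ran from -0.78 to 0.45 with a median of 0.01, against a median of 0.04 over all miRNAs. Their standard errors of 0.35 to 0.37 put the half-width of a 95% interval near the size of the largest of these differences. Differences of this size could therefore mostly not be told from 0 with 2 clones each. In bulk RNA, fewer cells that make a miRNA and less of it per cell cannot be told apart. The genotypes did not overlap for 4 members, with miR-15a, miR-195 and miR-497 lower and miR-322 higher in both Junb-/- clones. Over all miRNAs this held for 274 of 710 (38.6%), with 17.3% lower and 21.3% higher in Junb-/- MEFs.

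**Figure D1:**
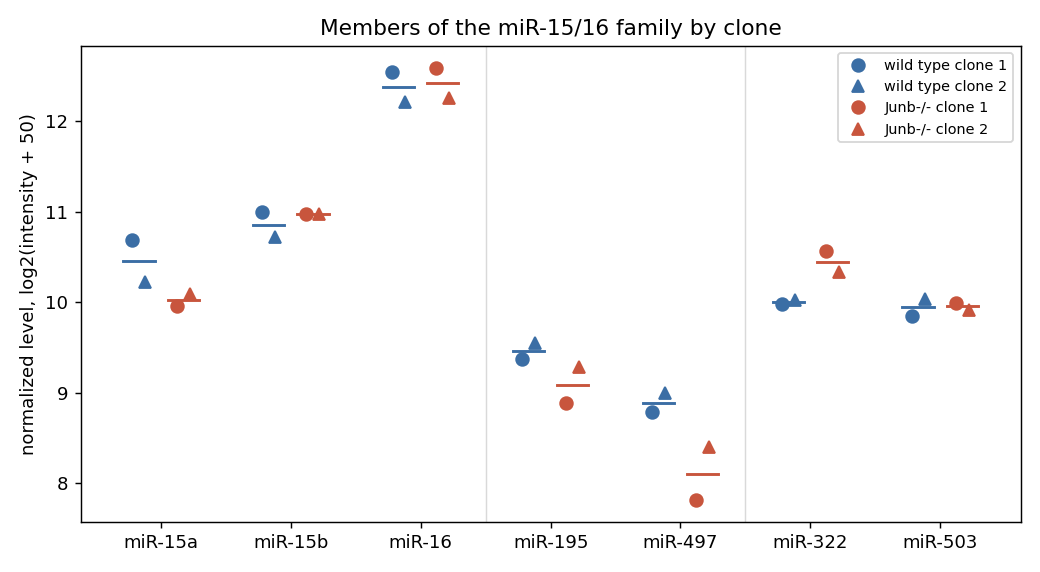
Normalized level, log2(intensity + 50), of each member in each clone; points are clones, short lines are genotype means, and grey lines part the miR-15 and miR-16, miR-195 and miR-497, and miR-322 and miR-503 loci. The Junb-/- clones lie below the wild type clones for miR-15a, miR-195 and miR-497 and above them for miR-322, and the clones overlap for miR-15b, miR-16 and miR-503.

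At the Dleu2 locus of miR-15a and miR-16, the median spot intensity of miR-15a was 1466 and 1218 in wt clones 1 and 2, compared with 983 and 1232 in Junb-/- clones 1 and 2. On this unscaled intensity the genotypes overlapped, with Junb-/- clone 2 above wt clone 2. After normalization the level of miR-15a was 10.69 and 10.22 in wt and 9.96 and 10.09 in Junb-/- MEFs, so that the Junb-/- clones were both lower than either wt clone. The log2 fold change was -0.43 (95% interval -1.19 to 0.34, limma adjusted p = 0.762). The wt clones themselves stood 0.46 apart, which is more than the difference between the genotype means. Taken spot by spot, Junb-/- minus wt was below 0 at 8 of 8 spots, from -0.83 to -0.13. Spots of an array share 1 RNA sample, so this shows that the probes of miR-15a gave like readings and adds no clone.

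miR-16, the member made from both the Dleu2 and the Smc4 hairpins, had median spot intensities of 5942 and 4417 in wt and of 4498 and 5088 in Junb-/- MEFs. Its level was 12.55 and 12.22 in wt and 12.60 and 12.26 in Junb-/- MEFs. The genotypes overlapped nearly fully, with clone 1 above clone 2 by 0.33 in each. The log2 fold change was 0.05 (95% interval -0.72 to 0.81, limma adjusted p = 0.973). At 4 of 8 spots the difference was below 0. Single spots of miR-16 ranged widely, from 3509 to 24282 in Junb-/- clone 2.

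At the Smc4 locus, miR-15b had median spot intensities of 1634 and 1550.3 in wt and of 1909 and 2100.0 in Junb-/- MEFs. Its level was 11.00 and 10.72 in wt MEFs and 10.97 in both Junb-/- clones, which thus lay between the wt clones. The log2 fold change was 0.12 (95% interval -0.64 to 0.87, limma adjusted p = 0.941), and the difference was below 0 at 3 of 8 spots.

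**Figure D2:**
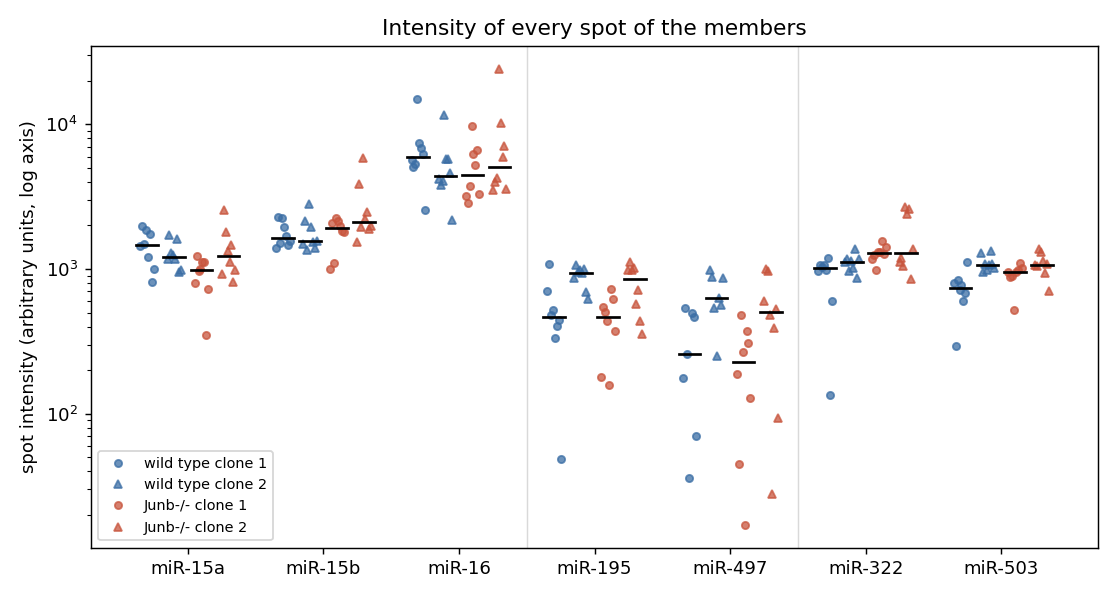
Intensity of every measured spot of the members by clone, in arbitrary units on a log axis, with black bars at the median over spots. miR-497 and miR-195 show the lowest single spots, down to 17 and 48.6, while the medians of all members in all clones stay at 227 or above.

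At the locus of miR-195 and miR-497, both members had lower levels in both Junb-/- clones. miR-195, which in the mouse heart is known to hold back the division of muscle cells, had median spot intensities of 463 and 944 in wt and of 468 and 853 in Junb-/- MEFs. These unscaled values split by clone number more than by genotype, with both clones numbered 1 near the same value. Over all spots, the arrays of both clones numbered 1 were also dimmer. Their medians were 33.6 (wt) and 84.0 (Junb-/-), against 105.6 (wt) and 110.1 (Junb-/-) for clones numbered 2. Whether this accounts for the split was not tested. The level was 9.37 and 9.55 in wt and 8.89 and 9.29 in Junb-/- MEFs. The log2 fold change of miR-195 was -0.37 (95% interval -1.14 to 0.39, limma adjusted p = 0.804), and 7 of 8 spots gave a difference below 0.
miR-497, the partner hairpin, showed the largest difference of the 7. Its median spot intensities were 259 and 632 in wt and 227 and 504 in Junb-/- MEFs, and those of both clones numbered 1 were again close. Its level was 8.78 and 9.00 in wt and 7.81 and 8.40 in Junb-/- MEFs. The genotypes did not overlap. The log2 fold change was -0.78 (standard error 0.37), a 1.72-fold difference, with a 95% interval of -1.57 to 0.0014, an unadjusted p of 0.0504 and a limma adjusted p of 0.462, and 74 miRNAs had a smaller p. All 7 spots measured on the 4 arrays gave a difference below 0, from -1.52 to -0.07. The spots of miR-497 were uneven, with a standard deviation over spots of 1.00, 0.65, 1.06 and 1.30 on the log2 scale in the same order of clones. In wt clone 2 those of miR-16 were more so (0.71), and in the other 3 clones no member had a higher value than miR-497. Its lowest spots, at 36, 248.8, 17 and 28, were in 3 of 4 clones below the offset of 50, which compresses differences.

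At the X-linked locus the genotypes did not overlap for miR-322 and overlapped for miR-503. miR-322, whose mouse form is known to help myoblasts leave the cell cycle, had median spot intensities of 1015 and 1121 in wt and of 1294 and 1288 in Junb-/- MEFs. Both Junb-/- clones were higher on this unscaled intensity, but without normalization the median log2 fold change over all miRNAs was itself 0.23. The level was 9.98 and 10.02 in wt and 10.56 and 10.33 in Junb-/- MEFs, so the wt clones lay 0.04 apart. The log2 fold change was 0.45 (95% interval -0.30 to 1.20, limma adjusted p = 0.738), and 0 of 8 spots gave a difference below 0, with a range from 0.03 to 1.03. The direction of miR-322 turned with median scaling, to -0.08, and in the values normalized by the authors, to -0.10. Over the processing settings that keep all clones, its log2 fold change ran from -0.10 to 0.57, with 0.20 for the median over spots.
miR-503 had median spot intensities of 743 and 1068 in wt and of 954 and 1073 in Junb-/- MEFs. Its level was 9.85 and 10.04 in wt and 10.00 and 9.91 in Junb-/- MEFs. The Junb-/- clones lay between the wt clones, with a log2 fold change of 0.01 (95% interval -0.74 to 0.76, limma adjusted p = 0.989). Differences were below 0 at 4 of 8 spots.

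**Figure D3:**
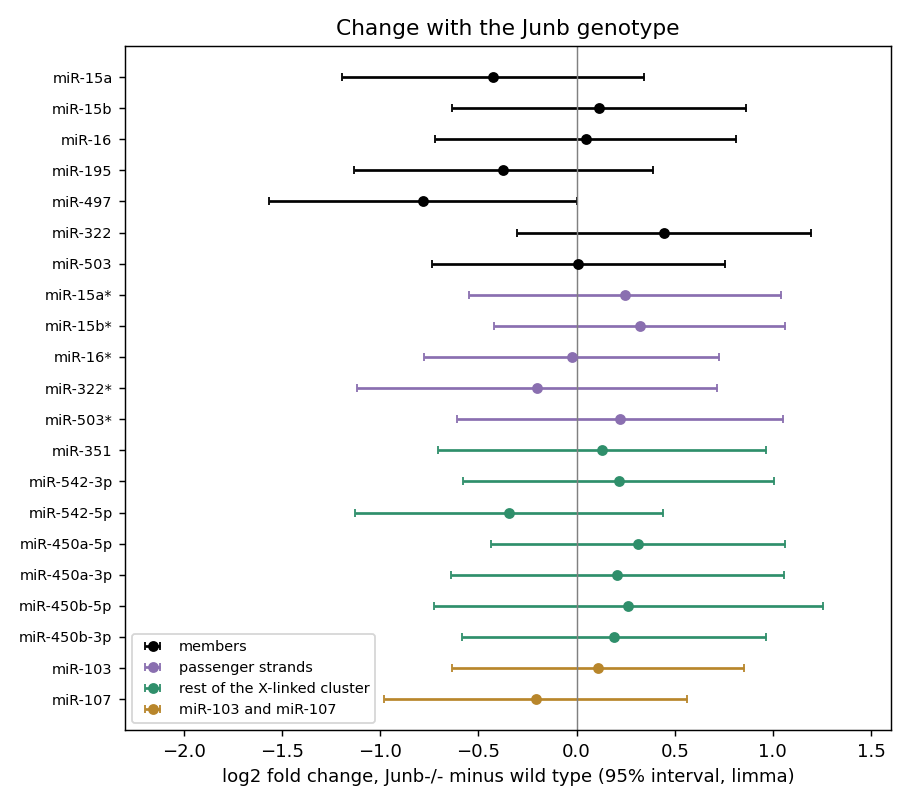
Log2 fold change, Junb-/- minus wild type, with the 95% interval from limma, for the members, the passenger strands of their hairpins, the other miRNAs of the X-linked cluster, and miR-103 and miR-107. All of these intervals include 0; that of miR-497, from -1.57 to 0.0014, reaches least above it.

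Partners of a locus were also set against each other within each array, which largely takes out a factor that scales a whole array. The level of miR-322 minus that of miR-503 was 0.13 and -0.02 in wt and 0.57 and 0.42 in Junb-/- MEFs, a difference of 0.44 between genotypes. For miR-195 minus miR-497 the values were 0.59 and 0.56 in wt and 1.08 and 0.89 in Junb-/- MEFs, a difference of 0.41. For miR-15a minus miR-16 they were -1.86 and -1.99 in wt and -2.63 and -2.17 in Junb-/- MEFs, a difference of -0.47. In these 3 pairs the genotypes did not overlap (SD between clones of a genotype 0.02 to 0.33, n = 2). For single miRNAs the genotypes did not overlap in 38.6% of all. The share over other pairs of miRNAs was not computed, so the count of pairs has no background to be read against. The exact two-sided permutation test gave p = 0.333 for each, which is the smallest value that 2 against 2 clones allow (0.444 after Benjamini-Hochberg adjustment over the 4 pairs compared), so this test cannot reach 0.05 with these numbers. For miR-15b minus miR-16 the values were -1.55 and -1.50 in wt and -1.62 and -1.29 in Junb-/- MEFs, with the wt clones between the Junb-/- clones and a difference of 0.07 (exact p = 1). All 4 differences kept their direction under the 10 other ways of processing the intensities. They lay between -0.51 and -0.18 for miR-15a minus miR-16 and between 0.07 and 0.43 for miR-15b minus miR-16. For miR-195 minus miR-497 they lay between 0.18 and 0.68, and for miR-322 minus miR-503 between 0.09 and 0.46. Among these ways, normexp, a background correction, left the values nearly unchanged, and scaling of a whole array largely cancels within it. For such settings a kept direction was largely fixed in advance. Whether the genotypes overlapped depended more on the processing. They did not overlap in 9 of 10 ways for miR-15a minus miR-16, 7 of 10 for miR-195 minus miR-497, 8 of 10 for miR-322 minus miR-503 and 4 of 10 for miR-15b minus miR-16. For miR-322 minus miR-503 they overlapped with the values of the authors (difference 0.09, exact p = 1) and with the median over spots (0.15, exact p = 0.667).

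The level of several members relative to the other genotype depended on how the arrays were scaled. All 7 belong to the 177 miRNAs with the highest mean level, and in the values normalized by the authors wt clone 1 was the highest of the 4 arrays for 6 of 7 members and for 90 of the 177 highest miRNAs on that scale (50.8%). For miR-16, whose raw median intensity was 5942 in wt clone 1, these values were 13.99 and 12.40 in wt and 12.82 and 12.64 in Junb-/- MEFs. For miR-15a they were 11.98 and 10.55 in wt and 10.64 and 10.60 in Junb-/- MEFs, so that wt clone 1 alone stood apart and wt clone 2 was below both Junb-/- clones. In quantile-normalized levels wt clone 1 was the highest for 2 of 7 members, and by median spot intensity likewise for 2 of 7.
With the values of the authors all 7 log2 fold changes were below 0, with a median of -0.43 against -0.03 over all miRNAs. The same held with scaling to the median of each array (members -0.68, all miRNAs -0.09), and with scaling to the 75th percentile 6 of 7 were below 0 (members -0.51, all miRNAs -0.01). With quantile normalization, cyclic loess or no normalization 3 of 7 were below 0, namely miR-15a, miR-195 and miR-497, which for quantile normalization compares with 45.6% of all miRNAs. Without normalization the median over all miRNAs was itself shifted to 0.23. The medians of the members were near those of all miRNAs once wt clone 1, the dimmest array, was left out of the comparison. This clone was dropped after the scaling of all 4 arrays, a step added after seeing the data. Then 2 of 7 members were below 0 with the values of the authors (members 0.13, all miRNAs 0.11), 4 of 7 with median scaling (-0.02 and 0.03) and 2 of 7 after scaling to the 75th percentile (0.13 and 0.11). For miR-15a the log2 fold change was then 0.07, -0.10 and 0.06 in the same order, compared with -0.64, -0.98 and -0.81 with all clones. That of miR-497 was -0.66, -0.98 and -0.85, compared with -0.61, -1.03 and -0.89. No other clone was left out under these scalings, so whether the change is particular to wt clone 1 was not tested. In quantile-normalized levels of all clones the medians were 0.01 for the members and 0.04 over all miRNAs. Without wt clone 1 these medians were further apart, at -0.09 and 0.06.
In quantile-normalized levels, leaving out each clone in turn gave log2 fold changes from -0.66 (without wt clone 2) to -0.19 (without wt clone 1) for miR-15a and from -0.57 (without Junb-/- clone 2) to -0.17 (without Junb-/- clone 1) for miR-195. The ranges were -1.08 to -0.49 for miR-497 and 0.33 to 0.56 for miR-322.

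**Figure D4:**
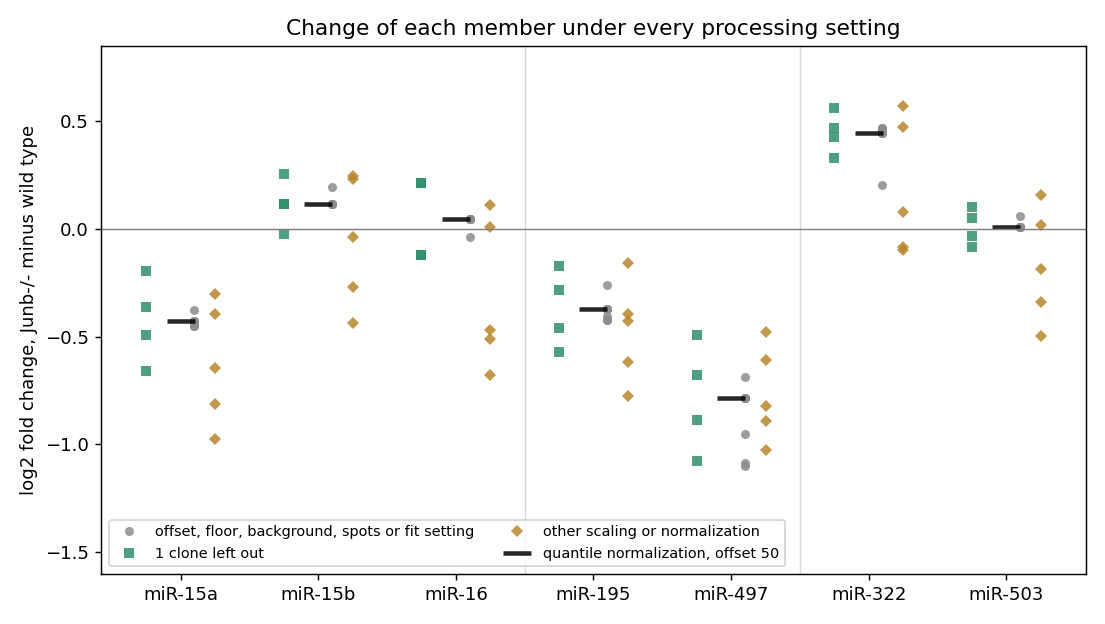
Log2 fold change, Junb-/- minus wild type, of each member under each way of processing but those added after seeing the data. Black bars are quantile normalization with an offset of 50, squares leave out 1 clone, and diamonds use another scaling. Circles change the offset, floor, background, spot average or fit. In the added settings, which omit wild type clone 1, miR-15a was 0.07 (values of the authors), 0.06 (75th percentile) and -0.10 (median scaling). miR-15a, miR-195 and miR-497 stay below 0 in all settings shown, while miR-15b, miR-16, miR-322 and miR-503 lie on both sides of 0.

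The other miRNAs of these hairpins and of the wider group gave 0 calls as well. Of the passenger strands, the star strands that are usually degraded, 5 of 9 listed names were on the array, with log2 fold changes from -0.20 to 0.32 and adjusted p from 0.840 to 0.980. miR-15b* was higher in both Junb-/- clones, at a level of 6.36 in each against 6.03 and 6.05 in wt MEFs, but its median spot intensities of 8 to 45 were below the offset. miR-322* did not follow miR-322, with levels of 8.41 and 9.51 in wt and 9.12 and 8.40 in Junb-/- MEFs. Its genotypes overlapped (log2 fold change -0.20, 95% interval -1.12 to 0.71).
Of the rest of the X-linked cluster, 7 of 8 listed names were measured. Their log2 fold changes were above 0 for 6 of 7, all but miR-542-5p, compared with 386 of 710 over all miRNAs. They had a median of 0.21 and a range from -0.34 to 0.31, with limma adjusted p from 0.840 to 0.941. The genotypes did not overlap for 1 of them, miR-450a-5p, at 6.09 and 6.24 in wt and 6.54 and 6.41 in Junb-/- MEFs. Median spot intensities of these 7 were 9.20 to 366, so most lay where the offset compresses differences. miR-351, the neighbour of miR-503, had levels of 7.59 and 8.42 in wt and 7.94 and 8.33 in Junb-/- MEFs and overlapped between genotypes.
miR-103 and miR-107, which are encoded in introns of pantothenate kinase genes, are counted with the family in the miR-15/miR-107 group because they carry the same 6 bases, AGCAGC, 1 position nearer to the 5′ end. Their sequences are shown for this shift of the seed, again in capitals.
miR-103: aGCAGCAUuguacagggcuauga
miR-107: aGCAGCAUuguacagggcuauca
miR-103 had levels of 10.23 and 10.30 in wt and 10.33 and 10.42 in Junb-/- MEFs (log2 fold change 0.11, 95% interval -0.63 to 0.85). For miR-107 the levels were 9.31 and 9.65 in wt and 9.08 and 9.46 in Junb-/- MEFs (log2 fold change -0.21, 95% interval -0.98 to 0.56). No further array miRNA was found among the 13 mature mouse sequences in the RefSeq table that hold AGCAGC at bases 1 to 6 or 2 to 7. This search went by name, and 551 of the 710 array names had a counterpart in that table. Non-members without a counterpart were not checked for these bases.

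Likeness of pattern was measured as the root mean square distance between log2 levels centred on their own mean over the 4 arrays. miR-497 was the 85th nearest of 709 miRNAs to miR-195, and miR-195 the 26th nearest to miR-497, at a distance of 0.22. miR-16 was the 39th nearest to miR-15b at 0.12 but the 174th nearest to miR-15a at 0.29, and miR-503 was the 143rd nearest to miR-322 at 0.23. Seen from the other partner, miR-15b was the 45th and miR-15a the 307th nearest to miR-16, and miR-322 was the 184th nearest to miR-503. The nearest non-members were miR-1941-3p for miR-15a (distance 0.03), miR-378* for miR-15b (0.03), miR-668 for miR-16 (0.05), miR-188-3p for miR-195 (0.04), miR-148a for miR-497 (0.12), miR-302d for miR-322 (0.03) and miR-34c* for miR-503 (0.03). With 4 arrays such distances describe these libraries only.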

How the data were processed

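The authors deposited 1 linear intensity per spot (8 spots for each of 710 miRNAs) from a single-colour Febit array, on which captured miRNAs are extended with biotinylated nucleotides and stained with streptavidin-phycoerythrin. They also deposited 1 normalized value per miRNA on a log2-like scale. The image analysis, the treatment of background and the normalization are not described in the texts used here, and the supplementary methods to which the study refers were not used here. Spots without a value (319 to 513 per array) were left out. From the intensities, log2(intensity + 50) was taken, arrays were quantile-normalized and the mean over spots was used. The background correction by normexp that was planned for files with a background column was not used, as there is none. The fit held all miRNAs and was made with limma 3.58.1 (R 4.3.3, lmFit and eBayes; prior degrees of freedom 11.8, residual 2), two-sided, with Benjamini-Hochberg adjustment and a threshold of 0.05. Because of the offset, fold changes on this log2 scale understate those of dim miRNAs. The steps were tested on simulated data. At the same threshold, 12.6% of simulated log2 changes of 1 and 60.4% of those of 2 were recovered. Of the simulated calls, 3.38% were false. Figures were drawn with matplotlib 3.10.9 (Python 3.11.15).

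The members, the other lists and the alternatives were chosen with earlier results of these data known. All members are named, then the other miRNAs of their loci, the miR-15/miR-107 group and, for each member, the 3 nearest non-members, of which the nearest is printed. Alternatives were offsets of 16 and 1, values under 16 set to 16, normexp on the intensities alone, scaling to the 75th percentile or median, cyclic loess, no normalization, the authors' values, the median over spots, a fit of only the 533 brightest miRNAs, trend and robust settings, a block for the clone number, and the omission of each clone in turn after normalization. The omission of wt clone 1 under the authors' values and both scalings was added after seeing the data. No slide is named in the files. The number of arrays limits the precision.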

Additional observations from a re-analysis of the deposited data

How the results depend on the processing

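No member passed the threshold under any of the 17 alternatives. With an offset of 1, median scaling, no normalization or the median over spots, no miRNA passed at all, so no member could. Trend and robust settings, the replicate block, normexp and the fit of the 533 brightest miRNAs leave the fold changes of the members in place. Of 91 member values under the other 13 alternatives, 74 kept their direction, among them all of miR-15a, miR-195 and miR-497. In the order miR-15b, miR-16 and miR-503, log2 fold changes turned to -0.27, -0.51 and -0.34 with scaling to the 75th percentile, to -0.43, -0.68 and -0.50 with median scaling and to -0.039, -0.47 and -0.19 with the values of the authors. miR-322 turned to -0.084 with median scaling and to -0.095 with the values of the authors, and miR-16 to -0.035 with the median over spots. With a clone left out the values ran from -0.023 to 0.25 for miR-15b (below 0 when wt clone 2 was out), from -0.12 to 0.21 for miR-16 (below 0 when wt clone 2 or Junb-/- clone 1 was out), from -0.085 to 0.10 for miR-503 (below 0 when wt clone 1 or Junb-/- clone 1 was out) and from -1.08 to -0.49 for miR-497. With wt clone 1 left out as well, an addition made after seeing the data, miR-15a turned to 0.068 with the values of the authors and to 0.056 with scaling to the 75th percentile, and miR-503 was -0.024 with median scaling; no member and 0 miRNAs in all passed in limma (52, 69 and 70 at an unadjusted p under 0.05 for the authors' values, 75th percentile and median). In fits without a clone, the lone clone is assumed to vary like the other genotype.

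Over all miRNAs, calls numbered 0 with an offset of 1, median scaling, no normalization or the median over spots in limma (54, 63, 31 and 75 at an unadjusted p under 0.05), 4 with values under 16 set to 16 (1 higher, 3 lower), 4 with the values of the authors (2 and 2), 29 with cyclic loess (10 and 19) and 17 with trend and robust settings (8 higher). Higher calls numbered 2 with scaling to the 75th percentile and 7 in the fit of the 533 brightest miRNAs. With any clone left out, calls ran from 0 to 11, higher ones from 0 to 5 and lower ones from 0 to 7, with 0 when either wt clone was out (71 and 62 at an unadjusted p under 0.05). With the clone number as a replicate block there were 16 calls (10 lower), none of them members, and the adjusted p of miR-497 was 0.218. The study speaks of clone pairs, but no source used here says what a pair shares or that equal numbers mark one. With 2 pairs, the correlation of 0.31 between the deviations of clones of 1 number cannot show a pairing. The cause of these shifts in the number of calls was not tested.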
